A study of Rattus norvegicus with 6 samples.

Results

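The secreted Wnt modulators and Wnt ligands examined here are 10 genes: the secreted frizzled-related proteins Sfrp1, Sfrp2 and Sfrp4, the secreted inhibitors Dkk3 and Wif1, the ligands Wnt4 and Wnt5a, the feedback gene Axin2, and the transcription factors Tcf7l2 and Lef1. They were chosen by name, and on the array every probe set that the platform annotation assigned to one of them alone was taken, which gave 22 probe sets for 10 of the 14217 genes on the array. For each gene the probe set that was brightest over all arrays stands for it, and the others are shown beside it. Expression was measured in mammospheres, floating spheres grown in non-adherent culture from dissociated mammary cells enriched for epithelium. The donors, Sprague Dawley females, were injected intraperitoneally once a day from 55 days of age, for 21 days, with recombinant human chorionic gonadotropin (hCG), a placental hormone with receptors in the ovary, at 100 IU per day, or with phosphate buffered saline as vehicle. Mammary glands 4 and 5 were removed 21 days after the last injection, and the spheres were collected after 7 days of culture in medium with epidermal and basic fibroblast growth factors. Both groups shared strain, sex, gland, medium and labelling. The 3 arrays of each treatment carry the numbers 5, 6 and 7. The design names 3 animals per treatment without stating that each array is 1 animal, so p-values describe the spread between these arrays, which may in part be technical.

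Wnt proteins are lipid-modified secreted signals that bind Frizzled receptors with the co-receptors Lrp5 and Lrp6. In the beta-catenin branch, receptor binding halts the destruction of beta-catenin, which then acts with TCF and LEF factors on target genes. Other branches act through polarity proteins. Secreted frizzled-related proteins and Wif1 bind Wnt proteins outside the cell and limit their access to receptors, and Axin2 is switched on by the pathway and feeds back to damp it. In the mammary gland Wnt4 is a signal that progesterone induces in hormone-sensing luminal cells, and Wnt5a restrains branching. Lef1 is needed for the early development of the gland.

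Axin2 is the member most widely used as a readout of beta-catenin signalling, and TCF and LEF factors bind DNA at short motifs, here CTTTG followed by AA, AT, TA or TT. The 250 bases before its start are therefore shown, from RefSeq on the rat assembly GRCr8, chr10:94398535-94398784 on the plus strand. Capitals mark matches to any of these 4 motifs, searched on both strands.

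Axin2: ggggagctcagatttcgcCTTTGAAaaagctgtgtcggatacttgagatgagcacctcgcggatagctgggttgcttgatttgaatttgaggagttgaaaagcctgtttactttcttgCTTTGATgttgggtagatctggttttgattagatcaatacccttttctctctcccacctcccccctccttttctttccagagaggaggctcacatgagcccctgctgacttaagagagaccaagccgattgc

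The window held 2 matches, CTTTGAA whose first base lay 232 bases upstream of the start and CTTTGAT whose first base lay 132 bases upstream, and they did not overlap. At least 1 match was found in 14.9% of the 33469 promoter windows of the same length, and at least 2 in 1.73%. Windows for 7 of the 10 members were at hand, and the other 6, those of Lef1, Sfrp2, Tcf7l2, Wif1, Wnt4 and Wnt5a, held 0 matches. A match describes the letters only, and binding was not measured.

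Among these genes the largest difference lay within the frizzled-related family. Sfrp4 rose 3.12-fold in hCG spheres (95% interval 2.23 to 4.38). Sfrp1 was 1.99-fold lower (95% interval 1.24 to 3.21), which did not pass the test. The ligand Wnt5a and the feedback gene Axin2 were lower on every hCG array than on any control array. Their differences were smaller and also missed the threshold. Tcf7l2 was higher on every hCG array, by less, and did not pass either. Groups were separated in this way in 26.3% of all genes, dim ones included. For Dkk3 and Lef1, and for the dim genes Sfrp2, Wif1 and Wnt4, groups overlapped and no difference passed the test. Signal below a log2 value of 2.67, the level under which the dimmest 40% of probe sets lay, was treated as too dim for the main test, and 6 of the 10 members lay above it. Of those 6, 1 rose and 0 fell in limma's test (Benjamini-Hochberg adjusted p under 0.05), where 1.01% of the 10424 genes tested rose and 0.815% fell. At an unadjusted p under 0.05 the 6 held 3 members, Sfrp4, Sfrp1 and Wnt5a, against 2510 of the 10424 genes.

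**Figure D1:**
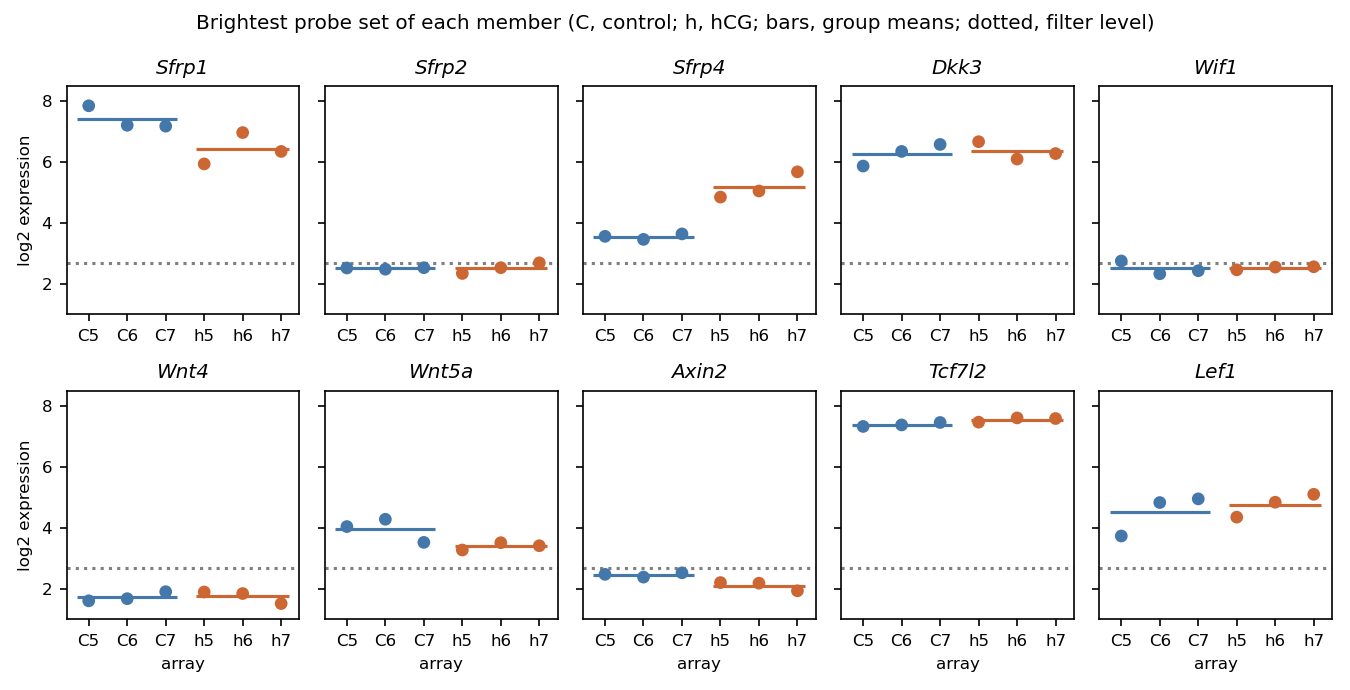
Log2 expression of the brightest probe set of each of the 10 members on the 3 control arrays (blue, C5 to C7) and the 3 hCG arrays (orange, h5 to h7), with bars at the group means and a dotted line at the filter level of 2.67. Sfrp4 is higher on all hCG arrays, from 4.85 to 5.68 against 3.46 to 3.64, Sfrp1 is lower, and Sfrp2, Wif1, Wnt4 and Axin2 have means below the dotted line; levels are not comparable between panels, which show different probe sets.

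Sfrp4 encodes a secreted frizzled-related protein found largely in connective tissue and smooth muscle. Its log2 values were 3.56, 3.46 and 3.64 on Control 5, 6 and 7, and 4.85, 5.05 and 5.68 on hCG 5, 6 and 7. The lowest hCG array stood more than a full log2 unit above the highest control array, and the controls lay closer together (SD 0.09, n = 3) than the hCG arrays (SD 0.43, n = 3). The log2 change was 1.64 (SE 0.21; limma adjusted p = 0.0341), which ranked 29 by p-value and 59 by size of change among the 10424 genes tested. The change lay between 1.40 and 1.81 with 1 array left out in turn. Sfrp4 lost its call without Control 5, Control 6, hCG 5 or hCG 7 (limma adjusted p = 0.0787, 0.113, 0.0999 and 0.168). In those 4 fits limma called 0 of the 10424 genes, and the unadjusted p was under 0.05 for 1950, 1931, 1649 and 1455 of them.

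The call of Sfrp4 rested on 1 of its 2 probe sets. The second, 1388021_at, was read at 2.20, 2.10 and 2.25 in controls and at 2.10, 1.91 and 2.05 after hCG. It was below the filter in both groups, with a log2 change of -0.16 (SE 0.09; limma adjusted p = 0.407 without the filter), so the pair differ in sign. The brightest probe set of Sfrp4 had a mean of 4.37 over the 6 arrays, just under the log2 value of 4.38 below which the dimmest 60% of probe sets lay, and with that stricter filter it was not tested.

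**Figure D2:**
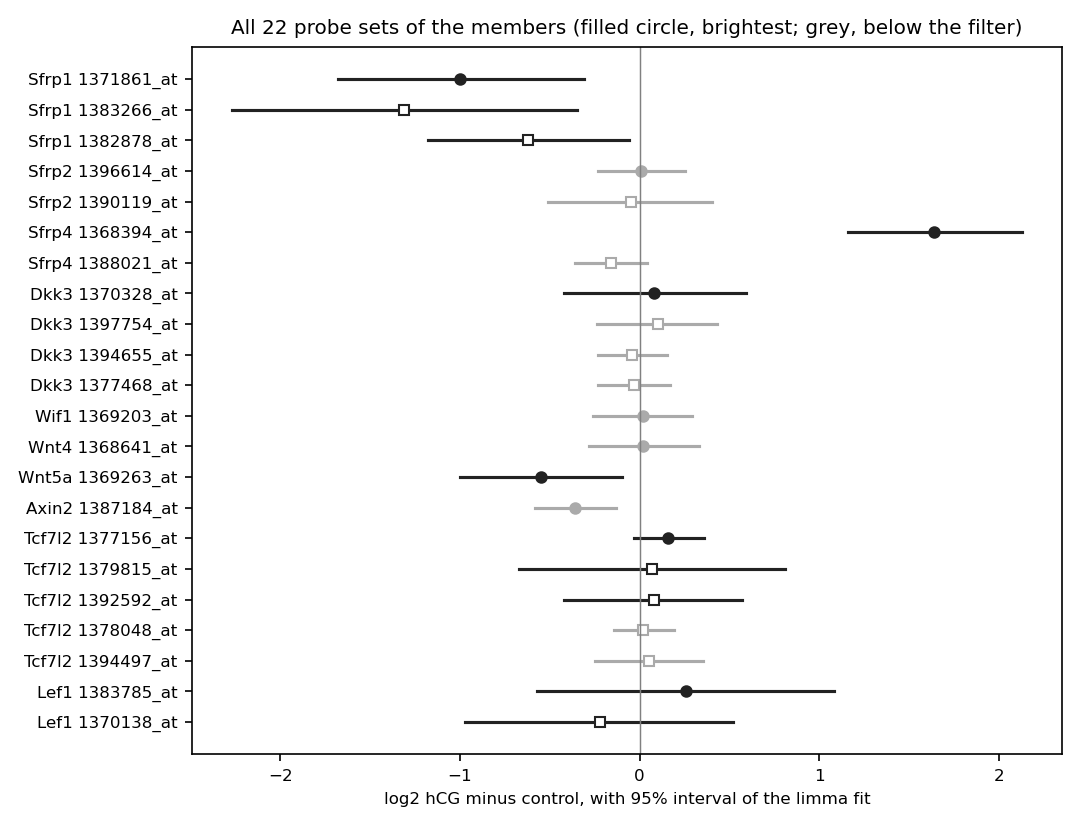
Log2 change, hCG minus control, of all 22 probe sets of the members with the 95% interval of the limma fit; filled circles mark the brightest probe set of a gene, open squares the others, and grey those below the filter. The interval of the bright Sfrp4 probe set, 1.16 to 2.13, lies farthest from 0, and the 3 Sfrp1 probe sets all lie below 0.

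Sfrp1, the family member best known as an epithelial and stromal antagonist that is silenced in many carcinomas, had the opposite sign. Its log2 values were 7.85, 7.21 and 7.18 on Control 5, 6 and 7, and 5.94, 6.97 and 6.35 on hCG 5, 6 and 7. Every hCG array lay below every control array, with hCG 6 only slightly below Control 7 and hCG 5 lowest. The log2 change was -1.0 (SE 0.29; limma adjusted p = 0.112). Both further probe sets of Sfrp1 were lower too. Probe set 1383266_at differed by -1.31 (SE 0.41; adjusted p over all probe sets 0.131), with 6.51, 5.72 and 5.30 in control spheres and 3.86, 5.21 and 4.54 in hCG spheres. Probe set 1382878_at differed by -0.62 (SE 0.24; adjusted p = 0.183), with hCG 6 at 4.01 above Control 7 at 3.86, so that its groups overlapped. On all 3 probe sets Control 5 was highest and hCG 5 lowest. Without hCG 6 the change of the brightest was -1.27 (limma adjusted p = 0.0547), and with any other 1 array left out it lay between -1.11 and -0.76.

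Sfrp2, another family member made by stromal cells, was dim on both probe sets. The brightest had 2.52, 2.48 and 2.53 in the controls and 2.34, 2.53 and 2.69 in the hCG group, and the groups overlapped. Tested without the filter its change was 0.01 (95% interval -0.23 to 0.25), an interval that concerns a signal near the lower end of the scale. Wif1, the Wnt inhibitory factor, had a change of 0.02 (95% interval -0.26 to 0.29), with 2.75, 2.33 and 2.43 in controls and 2.46, 2.55 and 2.56 after hCG. At such signal a difference in either gene may not be detectable.

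Dkk3, a Dickkopf relative whose link to Wnt receptors is weaker than that of its namesakes, was well above the filter and its groups overlapped. Its values were 5.87, 6.35 and 6.58 in control spheres and 6.67, 6.10 and 6.28 in hCG spheres. The lowest value was that of Control 5 and the highest that of hCG 5, the reverse of Sfrp1. The change was 0.08 (95% interval -0.42 to 0.59; limma adjusted p = 0.845), so a difference of up to 1.51-fold in the direction of a rise remains within the interval. The sign turned without Control 5 (-0.11) and without hCG 5 (-0.07). Its 3 further probe sets lay below the filter, with changes from -0.04 to 0.10.

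Of the ligands, Wnt5a, which signals mainly through receptors outside the beta-catenin branch, had values of 4.04, 4.28 and 3.52 in the controls and 3.27, 3.51 and 3.41 in the hCG group. The groups did not overlap, but Control 7 lay only just above hCG 6. The log2 change was -0.55 (SE 0.19; limma adjusted p = 0.150), a 1.46-fold difference. Without Control 7 the change was -0.76 and passed (limma adjusted p = 0.0347), in a fit where 5.60% of all genes passed. Without Control 6 it was -0.38 (adjusted p = 0.306). With arrays weighted by their fit to the model, Wnt5a (-0.68, adjusted p = 0.0106) and Sfrp1 (-1.13, adjusted p = 0.0169) passed beside Sfrp4, where 25.5% of all genes did.

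Wnt4 was near the floor of the arrays. Its single probe set had 1.60, 1.67 and 1.90 in controls and 1.89, 1.84 and 1.51 after hCG, with no order between the groups. Tested without the filter the change was 0.02 (95% interval -0.28 to 0.33), and at this signal a difference may not be detectable.

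Axin2, whose promoter is shown above, also lay below the filter on its single probe set. Its values were 2.47, 2.38 and 2.52 in control spheres and 2.20, 2.18 and 1.93 in hCG spheres. All hCG arrays were lower than all control arrays. Tested without the filter, the log2 change was -0.36 (SE 0.10; limma adjusted p = 0.108), a 1.28-fold difference at dim signal. Groups did not overlap in 5 of the 10 members, Sfrp1, Sfrp4, Wnt5a, Axin2 and Tcf7l2, where 26.3% of all genes without the filter behaved so. Among the 6 members above the filter the count was 4, where the share of all genes tested was 31.6%.

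Tcf7l2 and Lef1 encode the factors that carry beta-catenin to its target genes. Tcf7l2 varied least of the members tested, with 7.33, 7.38 and 7.46 in the controls and 7.47, 7.61 and 7.59 in the hCG group. The lowest hCG value was just above the highest control value, and the change was 0.16 (SE 0.08, 95% interval -0.03 to 0.36; limma adjusted p = 0.286). Its other tested probe sets, 1379815_at and 1392592_at, overlapped between groups with changes of 0.07 and 0.08, and the remaining pair were below the filter. Lef1 was spread more widely, with 3.73, 4.83 and 4.95 in controls and 4.35, 4.84 and 5.10 after hCG. Its groups overlapped and Control 5 was lowest. The change was 0.26 (SE 0.35, 95% interval -0.57 to 1.08; limma adjusted p = 0.689), -0.13 without Control 5, and 0.02 when its probe sets were averaged. The second Lef1 probe set, 1370138_at, had a change of -0.22 (SE 0.32), so its probe sets differed in sign. Over all members, 5 of the 12 further probe sets were above the filter and 0 of these passed limma's test, against 1.60% of all probe sets; at an unadjusted p under 0.05 there were 2, both of Sfrp1.

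**Figure D3:**
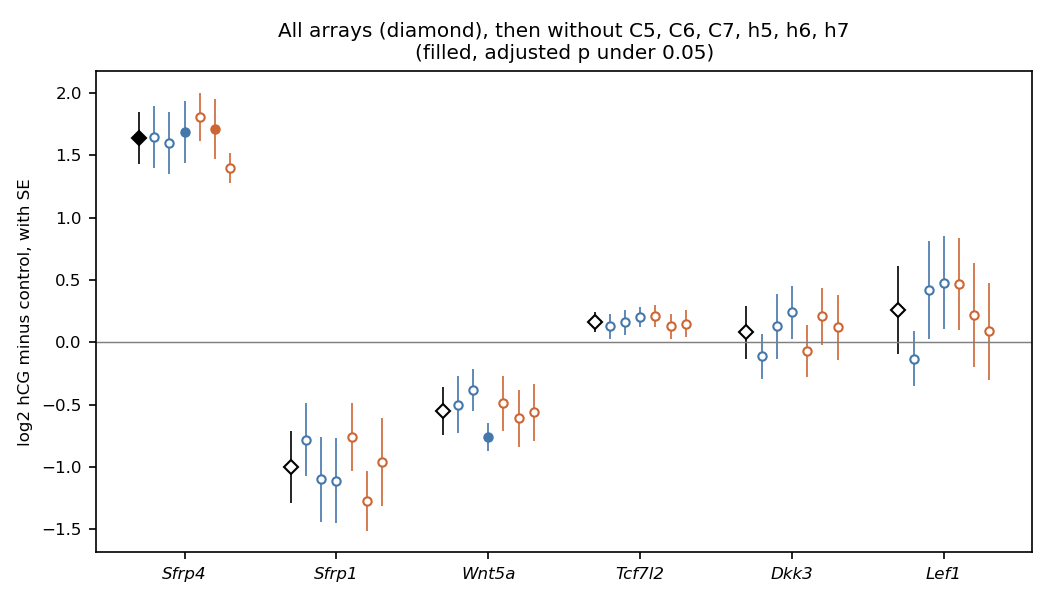
Log2 change with its SE for the 6 members above the filter, from all arrays (black diamond) and then without Control 5, 6 and 7 (blue) and hCG 5, 6 and 7 (orange); filled symbols passed at adjusted p under 0.05. Sfrp4 stays between 1.40 and 1.81 while its call comes and goes, Sfrp1 and Wnt5a stay below 0, and Dkk3 and Lef1 cross 0.

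Spheres are mixtures, and in such bulk RNA fewer cells of a type and less RNA per cell cannot be told apart. Markers of luminal and basal epithelium, fibroblasts, endothelium, pericytes and macrophages were all read above the filter, 9 of 10, 7 of 10, 11 of 12, 10 of 14, 4 of 6 and 4 of 7 genes in that order. Levels of a marker list are means of its genes' log2 values relative to their control means. Beside the rise of Sfrp4, the fibroblast list lay between -0.05 and 0.08 on control arrays and between 0.10 and 0.34 on hCG arrays, with 1 gene called higher and 1 lower. The pericyte list lay between -0.14 and 0.08 against 0.64 and 0.85, with 1 gene called higher, and its markers Cspg4 and Kcnj8 were below the filter. The endothelial list lay between -0.31 and 0.44 against 1.05 and 1.15, with 5 genes called higher, while Vwf and Tie1 were below the filter. The part of these cells in the Sfrp4 result was not tested.

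Beside the lower values of Sfrp1, the fibroblast, pericyte and endothelial lists were higher on every hCG array, as given above. The macrophage list was 0.46, -0.18 and -0.29 on Control 5, 6 and 7 and -0.86, -0.08 and -0.50 on hCG 5, 6 and 7. It overlapped between the groups and was highest on Control 5 and lowest on hCG 5 as Sfrp1 was. Limma called 0 of its genes, and Cd68 (-1.33) and Ptprc (-1.09) had an unadjusted p under 0.05. Its genes did not share a direction: Adgre1 had a change of 0.65, and Mrc1, whose mean was below the filter, had the smallest p of the list with a change of 1.47 (SE 0.31; limma adjusted p = 0.0595 without the filter), from 1.54 to 2.16 in controls and from 2.68 to 3.92 after hCG. Csf1r and Cd163 were also below the filter. The list of 6 division genes was higher on every hCG array, and highest where Sfrp1 was lowest. Its levels were -0.20, 0.03 and 0.18 in control spheres and 1.49, 0.58 and 1.11 in hCG spheres. Of these genes limma called 2 higher and 0 lower, and all 6 had a change above 0. The luminal, basal and all-layer epithelial lists overlapped between the groups. Of 9 luminal genes above the filter 1 was called lower, Cd24 (-1.42; limma adjusted p = 0.0289), and 1 had a change above 0. Of 7 basal genes 0 were called and 7 had a change above 0. Of 6 all-layer genes 0 were called and 4 had a change above 0. Each of these lists was lowest on Control 5, where Sfrp1 was highest. Lef1 was lowest on that array too. Control 5 had a basal and myoepithelial level of -0.64 and an all-layer epithelial level of -0.90. On the other arrays these levels lay from 0.13 to 0.82 and from 0.03 to 0.68. The luminal level was -0.75 on Control 5 but also -0.70 on hCG 7, where Lef1 was highest at 5.10. Whether these cells account for the values of Sfrp1 or Lef1 was not tested.

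**Figure D4:**
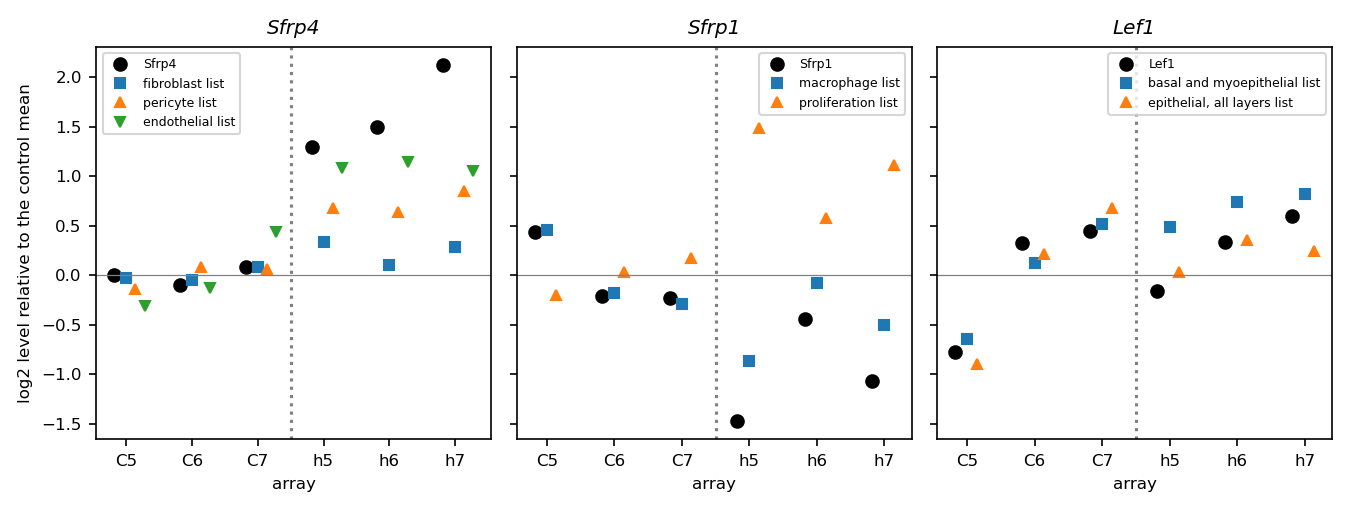
Log2 levels relative to the control mean on each array for Sfrp4 with the fibroblast, pericyte and endothelial lists, for Sfrp1 with the macrophage and division lists, and for Lef1 with the basal and all-layer epithelial lists. Sfrp1 and the macrophage list are both highest on C5 and lowest on h5, and Lef1 and both epithelial lists drawn are lowest on C5. The luminal list, not drawn, is -0.75 on C5 and -0.70 on h7.

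Array medians lay between 3.44 and 3.48. The poly-A spike-in controls, 27 probe sets for bacterial transcripts, had a mean log2 level of 5.07 ± 0.12 (SD, n = 3) in controls and of 4.14 ± 0.30 (SD, n = 3) after hCG, without overlap (two-sided p = 0.1 by an exact permutation test, which cannot give less with 3 against 3). The level was 3.97, 4.49 and 3.97 on hCG 5, 6 and 7, so hCG 6 stood nearest to the controls here. The same held for Sfrp1, but for Sfrp4 the nearest was hCG 5, at 4.85. For Actb, the excess of 3' over 5' signal was 1.76 ± 0.37 in controls and 1.63 ± 0.11 after hCG on the log2 scale (SD, n = 3, two-sided p = 0.8 by exact permutation). RNA degradation can raise this excess, but the RNA was also amplified in 2 rounds, so the excess does not measure degradation alone. The part of these differences in the results was not tested.

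Around the members, 108 genes of the Wnt pathway were listed by role; 86 were on the array and 66 above the filter. Of the 66, 2 rose and 2 fell, where 1.82% of all genes tested passed in either direction, and the median log2 change was 0.03, as it was over all genes tested. The 4 genes were Sfrp4, Wnt2, Ccnd1 and Myc. Groups did not overlap in 25 of the 66 pathway genes, 11 higher and 14 lower, beside 31.6% of all genes tested, a share not far from theirs.

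Among the 8 Wnt ligands above the filter 1 fell, 0 rose and 4 of the 8 lay below 0. Wnt2, a ligand of the mammary stroma, fell by 1.42 on the log2 scale (SE 0.25, 2.67-fold; limma adjusted p = 0.0473). Its values were 3.95, 4.71 and 3.80 in the controls and 2.69, 2.99 and 2.52 in the hCG group, so hCG spheres ended near the filter level. Its second probe set differed by -1.17 (SE 0.31), also without overlap. The call was lost when p-values were adjusted over all probe sets (0.0502), when the probe sets were averaged (0.0582), and without Control 5, Control 6, hCG 5 or hCG 7. Wnt5b, a close relative of Wnt5a, differed by -1.06 (SE 0.30; adjusted p = 0.109), with 4.28, 4.79 and 5.19 in controls and 4.23, 3.58 and 3.26 after hCG, again without overlap. Groups did not overlap in 3 of the 8 ligands, Wnt2, Wnt5a and Wnt5b, all lower, a count near what the 31.6% of all genes tested would give. The other 5 had changes from -0.11 to 0.07. Among them Wnt1 and Wnt6, with means of 2.78 and 2.72, lay just above the filter, where a difference may not be detectable.

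Of the 4 secreted antagonists above the filter, Sfrp4 was the one that passed. The change of Frzb, a further frizzled-related protein, was 0.39 (SE 0.33; limma adjusted p = 0.508), with 6.59, 6.42 and 6.21 in control spheres and 7.56, 6.15 and 6.68 in hCG spheres, and its groups overlapped. The change was 0.01 without hCG 5 and 0.72 without hCG 6. The other 6 antagonists on the array, Sfrp2, Sfrp5, Dkk2, Wif1, Sost and Sostdc1, were below the filter. In the R-spondin group, which strengthens Wnt signals by protecting receptors from ligases, 0 of 3 tested genes passed limma's test and 0 had an unadjusted p under 0.05. They were Rspo3 (-0.18), Znrf3 (0.04) and Lgr4 (-0.02), the last with a mean of 2.79, just above the filter. Porcn, the enzyme that adds lipid to Wnt proteins, differed by -0.36 (SE 0.10; adjusted p = 0.111) and Wls, their carrier to the surface, by -0.20 (SE 0.13; adjusted p = 0.387).

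Of 9 receptors and co-receptors 0 passed limma's test and 2 had an unadjusted p under 0.05. Fzd4, a receptor of endothelial and other cells, had 2.83, 2.83 and 3.28 in the controls and 4.33, 3.71 and 3.78 in the hCG group, without overlap. Its change was 0.96 (SE 0.20; limma adjusted p = 0.0596). Without Control 7 it passed (1.11, adjusted p = 0.0424), in a fit where 5.60% of all genes passed. The co-receptor Lrp6 differed by -0.48 (SE 0.13; adjusted p = 0.107), and Fzd8 by -0.32 (SE 0.14; adjusted p = 0.217). Fzd8 also passed in the fit without Control 7 (-0.46, limma adjusted p = 0.0473). Of 12 cytoplasmic transducers 0 passed limma's test, with Tnks2 (0.26) and Btrc (-0.24) below an unadjusted p of 0.05 and Csnk1a1 at 0.14. The beta-catenin gene Ctnnb1 had a change of -0.11 (95% interval -0.31 to 0.08), with every hCG array below every control array. Of the 12 transducers 4 were higher and 2 lower without overlap, beside 31.6% of all genes tested. Of 13 nuclear effectors 0 passed limma's test, with Tcf7l1 (0.49, SE 0.14; adjusted p = 0.109) and Tcf7 (-0.48, SE 0.18; adjusted p = 0.168) below an unadjusted p of 0.05 and Tle2 at 0.17. Of 7 polarity genes 0 passed limma's test, with Prickle1 (-0.31) and Vangl1 (0.24) below that level and Vangl2 at 0.38.

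Most genes known as targets of beta-catenin have other inputs as well. Of 8 above the filter, 1 rose and 1 fell in limma's test, beside 1.82% of all genes tested that passed in either direction. The unadjusted p was under 0.05 for 4, beside 2510 of the 10424 genes. Groups did not overlap in 5, 1 higher and 4 lower, beside 31.6% of all genes tested. Myc, a growth-promoting transcription factor, rose by 0.86 (SE 0.13; limma adjusted p = 0.0368), from 6.30, 6.51 and 6.61 to 7.13, 7.45 and 7.42. Ccnd1, which encodes cyclin D1, fell by 0.84 (SE 0.09; adjusted p = 0.0289), from 8.05, 7.92 and 8.15 to 7.16, 7.27 and 7.18, and its 2 other probe sets differed by -0.76 and -0.96 without overlap. Both lost their call without Control 5, Control 6, hCG 5 or hCG 7, as Sfrp4 did. The receptor gene Procr differed by -1.22 (SE 0.33; adjusted p = 0.0984), with 6.93, 6.72 and 5.78 in controls and 4.84, 5.65 and 5.28 after hCG. It passed without Control 7 (-1.57, limma adjusted p = 0.0352), in a fit where 5.60% of all genes passed. Cd44, a cell surface receptor for hyaluronan, differed by -0.78 (SE 0.22; adjusted p = 0.107) and Ccn4, a secreted matrix protein, by -0.21 (SE 0.11; adjusted p = 0.280), both without overlap. Among targets that serve as feedback inhibitors, Nkd1, Nkd2 and Apcdd1 had changes of 0.08, 0.08 and 0.06 with overlapping groups, beside the -0.36 of the dim gene Axin2.

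**Figure D5:**
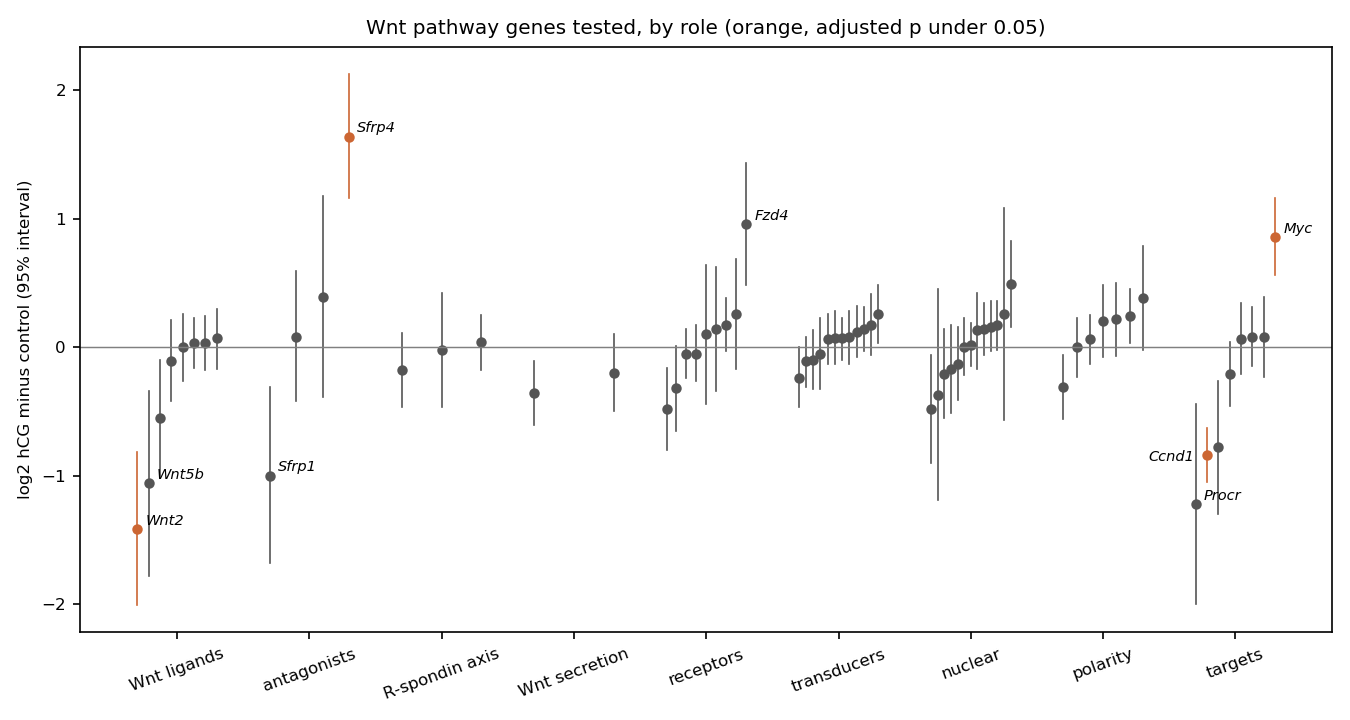
Log2 change, hCG minus control, with 95% intervals for the 66 Wnt pathway genes above the filter, grouped by role and sorted within each role; orange marks adjusted p under 0.05. The genes that passed are Sfrp4 (1.64) and Myc (0.86) above 0, and Wnt2 (-1.42) and Ccnd1 (-0.84) below it, while the nuclear effectors lie between -0.48 and 0.49.

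The genes whose values over the 6 arrays were most like those of a member, by Pearson's r among 10418 other genes, were named for the 3 tested members of smallest p. These r values include the difference between the groups, are the highest of many, and are given as a description. For Sfrp4 they were Eif1a (0.997), Arcn1 (0.994) and Msl3 (0.994), whose own log2 changes were 0.20, 0.17 and 0.24. For Sfrp1 they were C2cd2l (0.994), Chpt1 (0.993) and Tomm20 (0.992), with changes of -0.53, -0.50 and -0.15. For Wnt5a they were Rsrp1 (0.990), Ppp1r26 (0.989) and Ptprf (0.988), with changes of -0.29, -0.28 and -0.28. None of these 9 genes passed limma's test; their adjusted p lay between 0.0918 and 0.327.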

How the data were processed

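RNA was labelled with 2 rounds of amplification and hybridised to Affymetrix 3' arrays, per the labels. The table the authors deposited holds log2 expression for 31099 probe sets on 6 arrays; its scale was inferred from values of 0.74 to 13.1 with near-equal medians, and of the tools listed in the submitters' processing notes (RMA, MAS5, limma) no role is given. Such scaling hides any change common to most genes. The 57 control probe sets and the dimmest 40% of the others by mean over all arrays (below 2.67) were left out, which left 18625 probe sets. Gene names came from the platform annotation, updated through Entrez numbers for 20758 of 20826 single-gene probe sets. hCG was compared with control by limma 3.58.1 (lmFit, eBayes) in R 4.3.3, two-sided, with Benjamini-Hochberg adjustment over the brightest probe set of each of 10424 genes, or over all probe sets for further probe sets. Dim members were tested in a fit without the filter, over 14217 genes. Members, gene lists and tests were chosen with earlier results of these data known. All members were named; pathway genes were named if called, if among the 3 of smallest p in their role, or, after their values were seen, to describe a role; for the 3 tested members of smallest p, the 3 genes of highest r were named. The number of arrays, with 4 residual degrees of freedom, limits the precision.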

Additional observations from a re-analysis of the deposited data

How the results depend on the processing

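Sfrp4 was the 1 member called in 9 of the 11 alternatives that kept all arrays: no filter, median centring, quantile or cyclic loess normalization, the replicate block, a variance trend, robust eBayes, averaged probe sets and adjustment over all probe sets. When probe sets were averaged, only those above the filter were used, so the dim second probe set of Sfrp4 played no part. That alternative therefore could not weigh it against the call. With the dimmest 60% left out 0 members were called, since Sfrp4 was then not tested, and with array weights 3 were. With 1 array left out the number lay between 0 and 2. Of the pathway genes, 4 were called, 2 with the dimmest 60% left out, 17 with array weights, and 0 to 9 with 1 array left out. Over all genes limma called 190, against 306 with a variance trend, 118 with the replicate block, 2663 with array weights, 584 without Control 7, 338 without hCG 6, and 0 without any other 1 array. The cause was not tested. No sign was seen that array numbers pair the samples: deviations of same-numbered arrays correlated at -0.09, 0.13 and 0.00. So few arrays cannot exclude a pairing. With the replicate block Sfrp4 changed by 1.64 (adjusted p = 0.0450) and 1 member was called. None of the members that was called in any alternative changed sign. Depth here means signal: 4 of the 10 members lay below the filter, where differences may be missed.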
